A study of Mus musculus with 13 samples.

Results

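Amelx, Ambn and Enam encode the secreted proteins amelogenin, ameloblastin and enamelin, from which ameloblasts build the enamel matrix. The 3 genes were taken by symbol from the 48709 mouse genes of the deposited count table. RNA was sequenced from enamel organs, the epithelium that makes enamel, micro-dissected from mandibular incisors at postnatal day 11. One group held 5 libraries of Tgfbr2-G357W/+ mice (Het), which carry 1 mutant copy of the gene for the type II TGF-beta receptor and serve as a model of Loeys-Dietz syndrome type II, a connective tissue disorder. The other held 8 libraries of Tgfbr2-+/+ littermates (WT). The design text gives 1 mouse for each library, and strain and sex were not stated in it.

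Enamel is laid down in stages. Secretory-stage ameloblasts release amelogenin, ameloblastin and enamelin into the matrix, where the protease Mmp20 begins to cut them, and maturation-stage ameloblasts later remove the fragments with the protease Klk4 while mineral fills the space. Amelogenin is known as the main protein of the young matrix, ameloblastin as a protein needed for ameloblasts to hold to it, and enamelin as a large, scarce protein at the mineralization front. Loss of Amelx, Ambn or Enam disturbs enamel formation in mice, and the human genes are known from amelogenesis imperfecta. In bulk tissue, fewer ameloblasts and less RNA per ameloblast cannot be told apart.

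Positions are from GENCODE M21 on GRCm38. Amelx (ENSMUSG00000031354) lies on chromosome X from 169176114 to 169187200 on the minus strand, with 7 exons in its longest coding transcript. Ambn (ENSMUSG00000029288) lies on chromosome 5 from 88455991 to 88468531 on the plus strand, with 11 exons. Enam (ENSMUSG00000029286) follows on the same strand from 88487975 to 88506049, with 10 exons, and 19443 bases separate it from Ambn. Merged exons span 999 bases in Amelx, 1919 in Ambn and 5490 in Enam. Amelx lies wholly within the span of Arhgap6, a gene on the other strand, with which it shares 0 exon bases. The libraries are unstranded, and how reads from the shared span were assigned was not stated. Arhgap6 itself was low, with a mean of 3.62 log2 CPM (counts scaled to library size, on a log2 scale) and a log2 fold change of -0.21 (edgeR adjusted p = 0.789).

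The 250 bases before each RefSeq start (GRCm38.p6) are shown because the 3 genes are the shared output of secretory ameloblasts and their covariation is described further on. They run 5′ to 3′ on the gene's strand, at chrX:169187210-169187459 for Amelx, chr5:88455741-88455990 for Ambn and chr5:88487725-88487974 for Enam. Capitals mark CCAAT or its reverse complement ATTGG.
Amelx: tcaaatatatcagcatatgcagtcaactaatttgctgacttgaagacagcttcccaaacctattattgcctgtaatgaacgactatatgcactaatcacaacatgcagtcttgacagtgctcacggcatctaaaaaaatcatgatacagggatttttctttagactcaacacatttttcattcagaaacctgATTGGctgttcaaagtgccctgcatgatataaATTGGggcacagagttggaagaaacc
Ambn: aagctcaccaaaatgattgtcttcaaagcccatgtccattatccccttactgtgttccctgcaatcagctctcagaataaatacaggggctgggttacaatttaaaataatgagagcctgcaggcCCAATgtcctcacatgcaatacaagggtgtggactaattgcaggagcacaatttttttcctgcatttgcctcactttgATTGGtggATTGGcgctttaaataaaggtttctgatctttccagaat
Enam: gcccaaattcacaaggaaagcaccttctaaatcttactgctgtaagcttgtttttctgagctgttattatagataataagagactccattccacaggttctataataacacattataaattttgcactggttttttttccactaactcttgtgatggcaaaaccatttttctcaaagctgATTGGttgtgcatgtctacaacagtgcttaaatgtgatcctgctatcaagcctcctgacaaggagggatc

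CCAAT, the letters bound by nuclear factor Y and, in the mouse Amelx promoter, studied together with C/EBP-alpha, occurred in all 3 windows. On either strand it is in 33.8% of the 32851 annotated windows of this length. Amelx held it on the minus strand of the gene, 58 to 54 and 26 to 22 bases before the start. Ambn held it on the plus strand 125 to 121 bases before the start, and on the minus strand at 47 to 43 and 39 to 35. Enam held it once, on the minus strand, 70 to 66 bases before the start. A longer form chosen after the sequences were seen, CCAATCA, which contains CCAAT, was also in all 3 windows, at 60 to 54 bases before the start in Amelx, 49 to 43 in Ambn and 72 to 66 in Enam, against 7.23% of all windows. The TATA-box letters TATAAA (12.4% of windows) lay 31 to 26 bases before the start of Amelx and 137 to 132 before that of Enam, and were not in the Ambn window. TAATTG, the core bound by Msx and Dlx homeobox factors (7.17% of windows), was in the Ambn window alone, 91 to 86 bases before the start. TGTGGT, the core bound by Runx factors (14.0% of windows), was in none. Both strands were searched for each motif, and these matches describe letters, not binding.

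Sequencing depth was similar in both genotypes, at 20266079 to 26122340 total counts for Het and 18852382 to 26508410 for WT libraries. Library names follow the table columns, as in Het 4-2, and the number before the hyphen, called the prefix, has no meaning stated by the labels. There were 1 Het and 3 WT libraries with prefix 1, 2 Het and 3 WT with prefix 4, and 2 of each genotype with prefix 5. Epithelial markers were present in both genotypes, at differing levels. Krt14, an epithelial keratin, averaged 9.70 log2 CPM in Het and 9.63 in WT, and Krt5, its partner keratin, 8.44 in Het and 8.22 in WT. The adhesion genes Cdh1 (6.21 in Het and 6.39 in WT) and Epcam (4.40 and 4.26) were lower. Col1a1, a collagen gene of mesenchyme, was above Krt14, at 11.23 in Het and 11.55 in WT. Markers of tooth and bone mesenchyme were also present in every library. Summed odontoblast and pulp markers (7 genes) took 0.254% to 0.675% of counts in Het and 0.308% to 0.767% in WT. By far the highest of those tested were the collagen chains Col1a1 and Col1a2, which other lists share. Bone markers (7 genes) took 0.214% to 0.531% in Het and 0.275% to 0.656% in WT, and fibroblast markers (7 genes, some shared with these lists) 0.416% to 1.03% in Het and 0.521% to 1.22% in WT. The muscle, endothelial, immune and erythroid lists each summed to at most 0.0346% of any library. None of these lists was at 0 throughout. In each of 1 Het and 3 WT libraries 1 muscle marker was at 0, not necessarily the same one.

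Ambn had more counts than any other gene in all 13 libraries. Its share of all counts was 21.5%, 16.3%, 17.3%, 23.4% and 22.4% in Het 1-2, 4-2, 4-5, 5-5 and 5-6, against a lowest of 12.9%, a median of 20.8% and a highest of 24.3% in the 8 WT libraries. The Het shares lay inside the WT range, and within Het the lower values were the libraries of prefix 4. Ambn averaged 20.2% ± 3.17 in Het and 19.6% ± 3.90 in WT (SD, n = 5 and 8), a difference of 0.630 percentage points (exact two-sided permutation test over 1287 splits, p = 0.758).

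Amelx, the gene of the main protein of young enamel, had a far smaller share of counts than Ambn. It was 1.85%, 2.33%, 2.07%, 1.63% and 1.98% in the Het libraries in the same order, against a lowest of 1.10%, a median of 1.70% and a highest of 2.12% in WT. Het 4-2 was above every WT library, WT 4-4 was below every other library, and the groups overlapped. Amelx averaged 1.97% ± 0.262 in Het and 1.67% ± 0.293 in WT (SD, n = 5 and 8; difference 0.298 percentage points, exact permutation p = 0.0917). The p was under 0.05 without Het 5-5, the lowest Het library (0.0424), and without WT 4-1, the highest WT library (0.0303), while the difference was 0.207 without Het 4-2, the highest Het library (0.240), and 0.130 without all libraries of prefix 4 (0.268). These p-values are not adjusted for the 3 shares tested.

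Enam was close to Amelx in counts. Its share was 1.70%, 1.55%, 1.54%, 1.92% and 1.85% in the Het libraries, against a lowest of 1.01%, a median of 1.65% and a highest of 1.91% in WT. All Het libraries exceeded the lowest 3 WT libraries, WT 4-4, WT 4-3 and WT 1-1, and the ranges overlapped above these. Enam averaged 1.71% ± 0.175 in Het and 1.51% ± 0.337 in WT (SD, n = 5 and 8; difference 0.196 percentage points, exact permutation p = 0.263). Counting error is small beside the spread between mice: the Wilson 95% interval of any of these shares reaches at most 0.0179 percentage points to either side, and it covers counting error only. Together the 3 genes took 20.2% to 27.0% of counts in Het and 15.0% to 27.9% in WT.

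**Figure D1:**
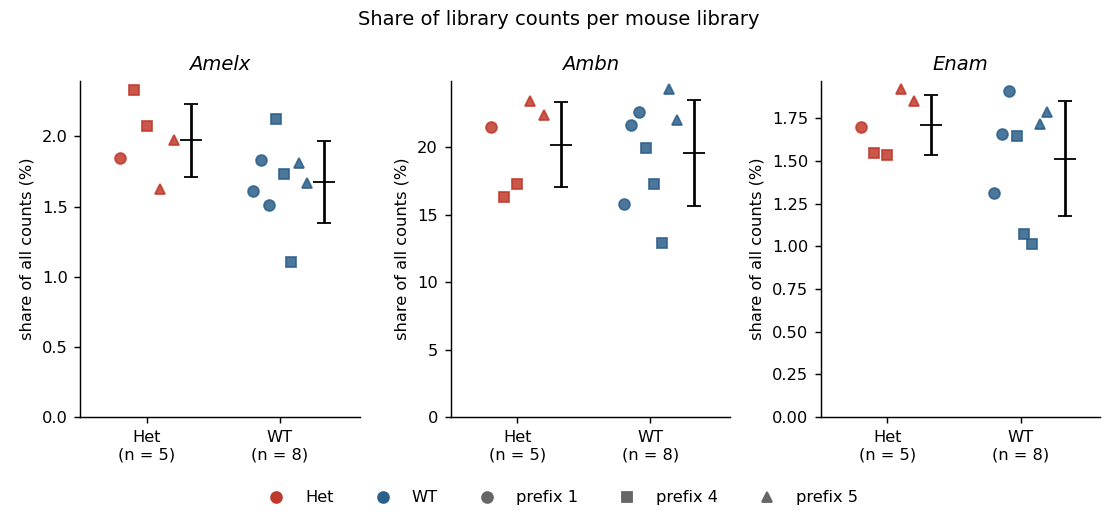
Share of all counts (%) of Amelx, Ambn and Enam in each library, with Het left of WT, marker shape giving the library prefix and black bars the mean ± SD (n = 5 and 8). The groups overlap for each gene, and WT 4-4 is the lowest library in all 3 panels.

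Levels of different genes can be compared only per length. On the scale of CPM per kilobase of merged exons, Ambn had 81286 to 124057 in Het and 64974 to 130785 in WT. Amelx had 16075 to 22299 in Het and 10698 to 21617 in WT. Enam had 2578 to 3579 in Het and 1785 to 3559 in WT. The order Ambn, then Amelx, then Enam held in all 13 libraries, with no overlap between genes in either group. Per length, Ambn exceeded Amelx 5.49 ± 1.52-fold in Het and 6.13 ± 1.03-fold in WT (SD, n = 5 and 8), and Amelx exceeded Enam 6.44 ± 1.43-fold in Het and 6.26 ± 1.36-fold in WT. Taking the longest coding transcript as the length, the Ambn to Amelx values were 4.78 and 5.35 in Het and WT. These levels rest on the deposited counts, and how well short, multiply spliced transcripts such as those of Amelx (5 annotated) are recovered was not tested.

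**Figure D2:**
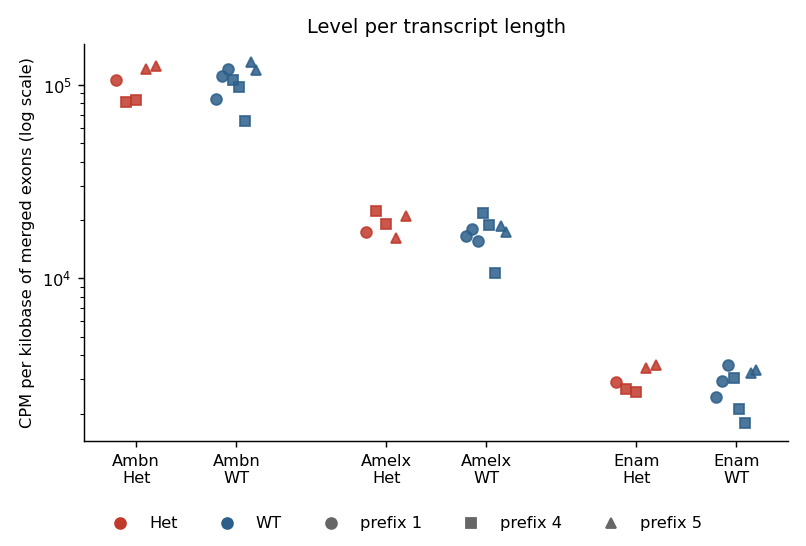
CPM per kilobase of merged exons (log scale) of Ambn, Amelx and Enam in each library, with Het left of WT within each gene and marker shape giving the prefix. The genes form separate bands in both groups, with Ambn highest at 64974 to 130785 and Enam lowest at 1785 to 3579.

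None of the 3 genes passed the test between genotypes. On the scale of log2 CPM with trimmed-mean (TMM) scaling, Amelx averaged 14.22 ± 0.19 in Het and 14.04 ± 0.30 in WT, Ambn 17.57 ± 0.29 in Het and 17.58 ± 0.33 in WT, and Enam 14.01 ± 0.21 in Het and 13.88 ± 0.35 in WT (SD, n = 5 and 8). In edgeR's quasi-likelihood test with Benjamini-Hochberg adjustment over 16328 genes, 0 of the 3 were past an adjusted p of 0.05, against 0.0857% of all genes tested (0.0429% higher and 0.0429% lower in Het). An unadjusted p under 0.05 was found for 0 of the 3, against 6.90% of all genes tested. DESeq2 and limma-voom called none of the 3 either. The Het and WT ranges of log2 CPM were apart for 0 of the 3, against 0.490% of all genes tested.

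The intervals show what sizes of difference these libraries leave possible. For Amelx the log2 fold change of 0.16 had a 95% interval of -0.19 to 0.52 (SE 0.17, edgeR adjusted p = 0.872). For Ambn it was -0.02, with an interval of -0.45 to 0.41 (SE 0.21, edgeR adjusted p = 0.992). For Enam it was 0.11, with an interval of -0.26 to 0.49 (SE 0.18, edgeR adjusted p = 0.922). Over all genes tested the median log2 fold change was -0.0044, and 49.1% were positive.

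Within prefixes the differences in mean log2 CPM were small apart from prefix 4. For Amelx they were 0.070, 0.34 and 0.032 in prefixes 1, 4 and 5, positive in each. For Enam they were -0.019, 0.22 and 0.095, and for Ambn 0.024, -0.093 and -0.028. The sign of the Ambn value therefore changed between prefixes, and it also turned to 0.055 when all libraries of prefix 4 were left out. The prefix 4 differences for Amelx and Enam rest on 2 Het and 3 WT libraries, among them WT 4-4. Without that library the log2 fold change was 0.088 for Amelx and 0.039 for Enam.

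**Figure D3:**
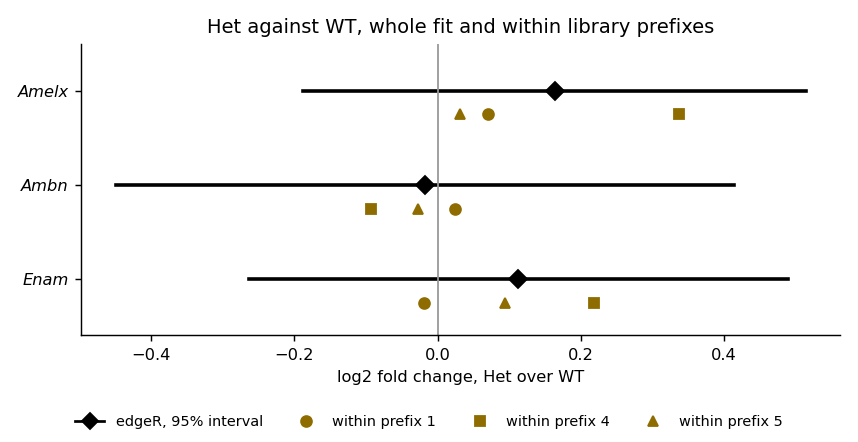
Log2 fold change of each gene, Het over WT, from the edgeR test (black diamonds, with 95% intervals as bars) and as the difference of mean log2 CPM within each library prefix (brown markers). The 3 intervals span 0, and the prefix 4 values of Amelx (0.34) and Enam (0.22) are the farthest from it.

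The spread between libraries was similar for the 3 genes. From the lowest to the highest library, the level differed 2.08-fold for Amelx, 2.01-fold for Ambn and 2.00-fold for Enam, and WT 4-4 was the lowest library each time. The pooled within-genotype SD of log2 CPM was 0.27, 0.31 and 0.31 for Amelx, Ambn and Enam. The median was 0.25 over the 422 genes of mean log2 CPM 8 or more, and 57.1%, 74.2% and 71.6% of these genes had a smaller SD than Amelx, Ambn and Enam. Prefix accounted for 58.2% of the variance of Ambn and 51.8% of that of Enam, but for 3.42% of that of Amelx. Genotype accounted for 0.0297%, 5.14% and 11.2% of the variance of Ambn, Enam and Amelx. These percentages are not corrected for the number of groups, which is larger for prefix. Any grouping of so few libraries takes up some variance, and none of these percentages was tested.

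Markers of other cells also differed by prefix. Summed odontoblast and pulp markers took 0.395% to 0.542% of counts in prefix 1, 0.447% to 0.767% in prefix 4 and 0.254% to 0.312% in prefix 5. This sum is mainly collagen and not particular to odontoblasts. Col1a1 and Col1a2, both shared with the fibroblast list, averaged 11.23 and 10.57 log2 CPM in Het and 11.55 and 10.67 in WT. Dmp1, the next highest marker tested, averaged 5.69 in Het and 5.85 in WT. Mean Ambn was 17.61, 17.32 and 17.85 log2 CPM in prefixes 1, 4 and 5, and mean Enam 13.98, 13.69 and 14.19. Ambn and Enam were thus lowest where the marker sum was highest and highest where it was lowest. Mean Amelx was 14.03, 14.13 and 14.15. The part of these other cells in the levels of the 3 genes was not tested.

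Ambn and Enam, the neighbours on chromosome 5, varied together over the libraries. Pearson's r of log2 CPM was 0.88 (n = 13, permutation p = 0.0002, adjusted over 9 relations 0.0006), and Spearman's rho was 0.88 (permutation p = 9e-05, adjusted 0.000405). Without Het 4-2 and WT 4-4, the libraries taken out by their distance from the median of Ambn, r was 0.81 (permutation p = 0.003). On differences from the prefix mean r was 0.73 (permutation p = 0.00473), but 0.53 when WT 4-4 was also left out (permutation p = 0.0734). For these differences the values were shuffled over all libraries, not within prefixes. The p-values do not allow for the prefix means taken off and may be too small. In the 8 WT libraries alone r was 0.90 (exact permutation p = 0.00332). The prefixes themselves hold 4 or 5 libraries each, too few for a value of their own, as are the 5 Het libraries. Both genes share each library's scaling factor, and the part of this sharing in r was not tested. With library sizes computed without the 3 genes r was still 0.88. That scaling also gives both genes the same factor, so it bears only on the weight of the 3 genes in the library size.

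Amelx did not show this relation across all libraries. Its r was 0.39 with Ambn (permutation p = 0.19, adjusted 0.285) and 0.45 with Enam (permutation p = 0.124, adjusted 0.223), and its Spearman's rho was -0.055 with Ambn and 0.011 with Enam (permutation p = 0.863 and 0.978). Leaving out Het 4-2 and WT 4-4, r was -0.034 with Ambn and -0.10 with Enam. Leaving out WT 4-4 alone, it was -0.28 and -0.18, so the positive r rests on WT 4-4. On differences from the prefix mean r was 0.60 with Ambn (permutation p = 0.0348) and 0.66 with Enam (permutation p = 0.0148). These p-values are not adjusted and, as for Ambn with Enam, may be too small. Without WT 4-4 the same r was 0.030 with Ambn and 0.21 with Enam (n = 12, permutation p = 0.925 and 0.52), so it rests on that library. Whether the correlations of Amelx and of Enam with Ambn differ from each other was not tested.

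Mmp20, which encodes the protease that cuts all 3 proteins, followed Ambn and Enam. Its r was 0.89 with Ambn (permutation p = 0.00018, adjusted 0.0006) and 0.94 with Enam (permutation p = 3e-05, adjusted 0.00027). Spearman's rho was 0.91 and 0.87 (permutation p = 2e-05 and 0.00029). On differences from the prefix mean r was 0.77 and 0.87 (permutation p = 0.0032 and 0.00011). It was 0.59 and 0.77 when WT 4-4 was also left out (permutation p = 0.046 and 0.00434). The p-values on these differences may again be too small, so the 0.046 does not settle whether that r is past 0.05. Without the 2 libraries farthest from the median, r was 0.81 and 0.83. With Amelx, Mmp20 had an r of 0.46 (permutation p = 0.116, adjusted 0.223), and rho was -0.016. Klk4, the maturation-stage protease, had an r of -0.16, 0.022 and -0.30 with Amelx, Ambn and Enam (permutation p = 0.607, 0.943 and 0.32, adjusted 0.683, 0.943 and 0.411) and a rho of 0.055, 0.13 and -0.088 (permutation p = 0.862, 0.667 and 0.777). These r changed with the libraries kept. Without the 2 libraries farthest from the median of each member, they were 0.61, 0.096 and 0.36 (permutation p = 0.0454, 0.78 and 0.282, not adjusted). On differences from the prefix mean without WT 4-4 they were -0.098, 0.58 and -0.14 (permutation p = 0.763, 0.0475 and 0.661, not adjusted and perhaps too small). WT 4-4, lowest in Amelx, Ambn and Enam, was also the lowest in Mmp20 at 7.94 log2 CPM. Its Klk4 level of 7.56 was within the upper part of the WT range. Among the 13 libraries WT 4-4 had the highest sums of odontoblast and pulp (0.767% of counts) and fibroblast markers (1.22%). Its bone marker sum of 0.605% was below the 0.656% of WT 4-3. WT 4-4 was highest in summed maturation-stage genes (6.12%) and lowest in summed secretory-stage genes (0.4001%), both lists given further on. The secretory-stage list includes Mmp20. The part of these markers in the levels of WT 4-4 was not tested.

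**Figure D4:**
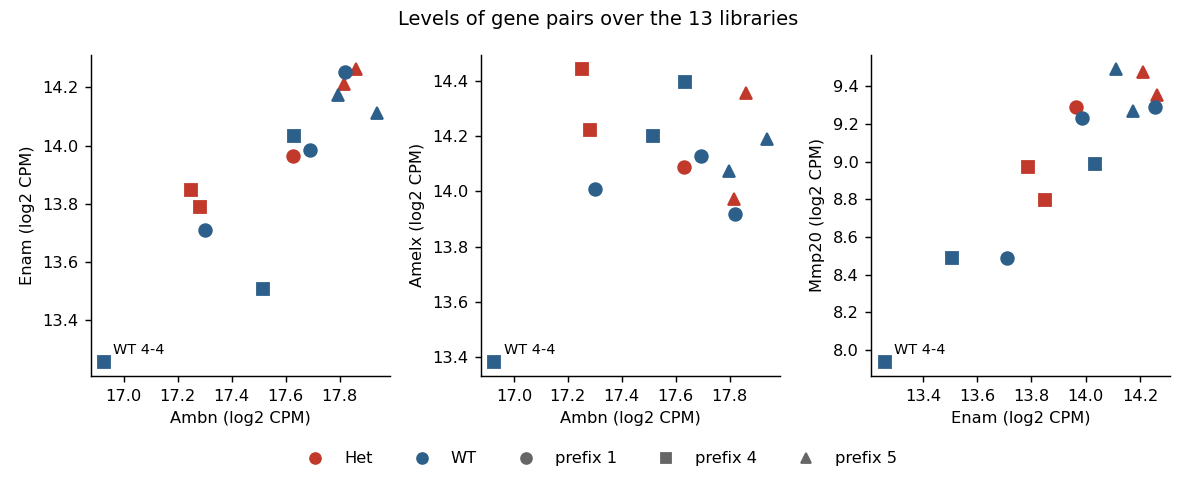
Levels (log2 CPM) of Enam against Ambn, Amelx against Ambn and Mmp20 against Enam in the 13 libraries, coloured by genotype and shaped by prefix. The outer panels rise together (r = 0.88 and 0.94), and in the middle panel WT 4-4 stands apart at the lower left while the other libraries show no rising line (r = -0.28 without it).

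Ratios of counts within a library do not depend on depth or scaling, and were used to ask whether the balance of the 3 transcripts differed between genotypes. The ratio of Amelx to Ambn counts was 0.0859, 0.143, 0.120, 0.0696 and 0.0882 in Het 1-2, 4-2, 4-5, 5-5 and 5-6, against a lowest of 0.0668, a median of 0.0851 and a highest of 0.106 in WT. Het 4-2 and 4-5 were above every WT library, and the other Het libraries were inside the WT range. The log2 ratio averaged -3.35 ± 0.41 in Het and -3.54 ± 0.24 in WT (SD, n = 5 and 8), a difference of 0.19 (exact permutation p = 0.323, adjusted over the 3 ratios 0.485). Within prefixes 1, 4 and 5 the difference was 0.046, 0.43 and 0.059, and without all libraries of prefix 4 it was 0.016.

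The ratio of Enam to Ambn counts was 0.0788, 0.0946, 0.0888, 0.0822 and 0.0825 in the Het libraries, against a lowest of 0.0621, a median of 0.0799 and a highest of 0.0844 in WT. Again Het 4-2 and 4-5 lay above the WT range. The log2 ratio averaged -3.55 ± 0.10 in Het and -3.70 ± 0.15 in WT (SD, n = 5 and 8), a difference of 0.15 (exact permutation p = 0.0831, adjusted 0.249). Within prefixes 1, 4 and 5 it was -0.043, 0.31 and 0.12, and it was 0.22 without all libraries of prefix 1 but 0.040 without those of prefix 4 (exact permutation p = 0.0476 and 0.607, not adjusted). Prefix accounted for 0.909% of the variance of this ratio, against 53.8% for Amelx to Ambn and 54.8% for Enam to Amelx.

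The ratio of Enam to Amelx counts was 0.918, 0.662, 0.741, 1.18 and 0.936 in the Het libraries, against a lowest of 0.619, a median of 0.911 and a highest of 1.26 in WT. The log2 ratio averaged -0.20 ± 0.32 in Het and -0.16 ± 0.31 in WT (SD, n = 5 and 8), a difference of -0.043 (exact permutation p = 0.814, adjusted 0.814). Its mean was -0.057, -0.44 and 0.041 in prefixes 1, 4 and 5, so this ratio moved with prefix more than with genotype.

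**Figure D5:**
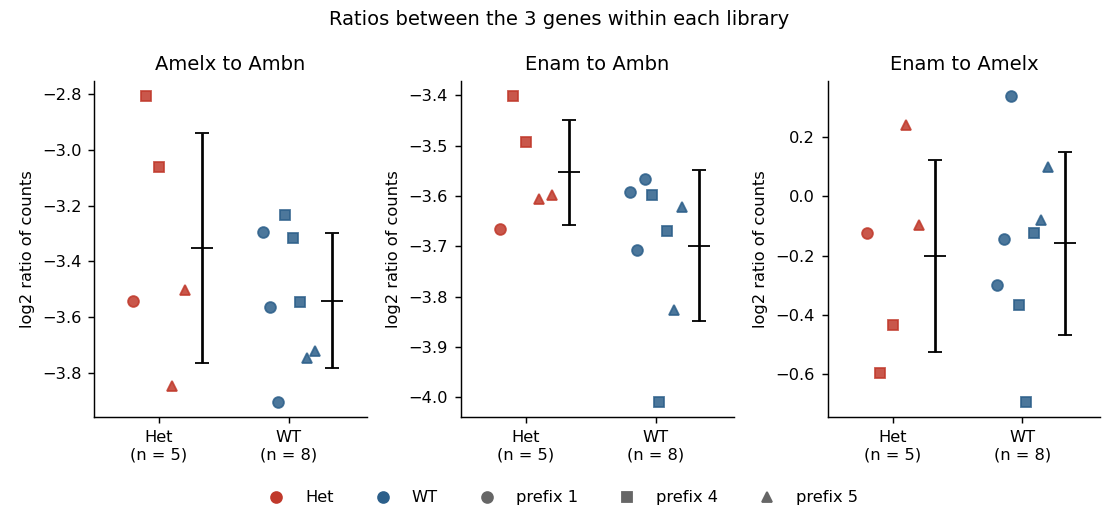
Log2 ratio of counts between gene pairs in each library, with Het left of WT, marker shape giving the prefix and black bars the mean ± SD (n = 5 and 8). Het 4-2 and 4-5 (squares) lie above all WT libraries for Amelx to Ambn and Enam to Ambn, and the other Het libraries overlap WT.

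The genes whose levels most resembled each member over the 13 libraries are given as a description, with Pearson's r of log2 CPM among 8465 other named genes of mean log2 CPM 3 or more. For Amelx they were Sec61a1, a channel subunit that passes secreted proteins into the endoplasmic reticulum (r = 0.89), the kinases Pak6 (0.86) and Cdk18 (0.85), Klhl25, a ubiquitin ligase adaptor (0.83), and the ligand Wnt7a (0.82). For Ambn they were Fermt1, an integrin activator of epithelia (0.95), Ggh, a folate hydrolase (0.94), Snap23, a membrane fusion protein of exocytosis (0.93), and Riox2 and Mfsd14a (0.93 each). For Enam they were Yipf6, a Golgi membrane protein (0.95), the kinase Sgk3 (0.95), Pdxdc1 (0.94), Mmp20 (0.94) and Trove2, an RNA-binding protein (0.93).

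The number of close companions differed. An r of at least 0.8 was reached by 6 genes for Amelx, 287 for Ambn and 235 for Enam (0.0709%, 3.39% and 2.78% of the genes compared). Ambn and Enam differed far more by prefix than Amelx did, and these counts were not recomputed on differences from the prefix mean. Ranked by r, Enam stood in place 54 for Ambn and Ambn in place 34 for Enam, while Ambn stood in place 981 and Enam in place 679 for Amelx. Sec61a1, first for Amelx, had an r of 0.48 with Ambn and 0.47 with Enam, and Fermt1, first for Ambn, had 0.42 with Amelx and 0.92 with Enam. On differences from the prefix mean the r of Sec61a1 with Amelx was 0.94, that of Fermt1 with Ambn 0.89 and that of Yipf6 with Enam 0.92. All these values share libraries, depth and scaling, and none of the 15 genes named passed the test between genotypes (edgeR adjusted p of 0.806 or more).

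In the lists of related genes, 0 members were past the edgeR threshold in either direction, against 0.0857% of all genes tested. At that share, lists this short would rarely hold any, so the counts of 0 say little about the lists. For the 6 enzymes that cut or phosphorylate matrix proteins the median log2 fold change was -0.017, with 3 positive and 3 negative values. The smallest p there belonged to Klk4 (log2 fold change -0.30 ± 0.13, SE, edgeR adjusted p = 0.666) and Furin, a proprotein convertase (-0.48 ± 0.27, 0.762). Mmp20 had 0.22 ± 0.21 (0.860). Of 19 transcription factors tested of 20 listed, 0 passed, with a median of -0.097, and Nfyc, a subunit of nuclear factor Y (0.17 ± 0.093), and Dlx3 (-0.35 ± 0.20) had the smallest p (edgeR adjusted p = 0.761 and 0.762).

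Among relatives of the secretory calcium-binding phosphoprotein family, to which the proteins of enamel and milk belong, 11 of 12 were tested and 0 passed (median -0.19). Csn3, kappa-casein, had a log2 fold change of 0.55 ± 0.15 and Amtn, amelotin of the maturation stage, -0.45 ± 0.15 (SE, edgeR adjusted p = 0.289 and 0.502). Of 15 other genes listed as known in secretory-stage ameloblasts, 14 were tested and 0 passed (median -0.054). Being on this list does not make a gene particular to that stage. Slc13a5, a citrate transporter, had -0.36 ± 0.13, and Stim1, the calcium sensor of the endoplasmic reticulum, -0.28 ± 0.11 (edgeR adjusted p = 0.566 and 0.584). Of 16 maturation-stage genes 0 passed, with 14 negative values and a median of -0.27 against -0.0044 over all genes, and Slc39a2, a zinc transporter, had the smallest p (-0.57 ± 0.12, edgeR adjusted p = 0.0770), followed by Slc26a1, an anion exchanger (-0.57 ± 0.16, 0.289).

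The cell type marker lists likewise held 0 genes past the edgeR threshold, against 0.0857% of all genes tested, which again says little for lists this short. The 10 epithelial markers, which include the 3 matrix genes and Mmp20, had a median log2 fold change of 0.15, with 8 positive values, and Krt5 (0.22, edgeR adjusted p = 0.776) and the adhesion molecule Epcam (0.15, 0.828) had the smallest p. All 6 odontoblast and pulp markers tested of 7 had negative fitted values (median -0.26), but for Dspp, the main dentin matrix gene (-0.41 ± 1.28, SE, edgeR adjusted p = 0.970), mean log2 CPM was 2.55 ± 1.11 in Het and 0.82 ± 2.45 in WT (SD, n = 5 and 8), the other way round. The smallest p belonged to the intermediate filament Nes (-0.30, edgeR adjusted p = 0.822) and the collagen chain Col1a1 (-0.32, 0.849). All 7 bone markers were negative too (median -0.29), with Bglap2, an osteocalcin gene, at -1.50 and the osteoblast factor Sp7 at -0.29 (edgeR adjusted p = 0.509 and 0.758). Fibroblast markers had a median of 0.028, with the receptor Pdgfra at 0.20 (0.741) and Col1a1, which is shared between these lists. Summed levels of these mesenchymal lists overlapped between the genotypes, and their part in the comparison of Amelx, Ambn and Enam was not tested.

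The scarcer cell types gave medians of -0.44 for the 6 muscle markers tested, 0.066 for endothelium, 0.076 for immune cells and -0.080 for erythroid cells. The smallest p belonged to the muscle genes Mylpf (-0.51, edgeR adjusted p = 0.831) and Myh1 (-0.84, 0.831), the endothelial genes Kdr (0.29, 0.789) and Emcn (0.082, 0.926), the macrophage genes Lyz2 (0.53, 0.757) and Cd68 (-0.18, 0.805), and the globins Hbb-bs (-0.18, 0.838) and Hbb-bt (-0.10, 0.909).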

How the data were processed

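Total RNA was made into unstranded Nextera XT libraries, pooled and sequenced as short single reads in a pair of runs, per the labels' protocols. The submitters' processing notes name STAR 2.5.2a, GRCm38, DESeq2, edgeR and limma. Neither the counter nor its annotation was named there. Raw counts per gene of 13 libraries, as the authors deposited them, were tested. A filtered count table held 21223 features. A deposited signal table, CPM with TMM scaling by its name, differed from the CPM recomputed here by at most 0.379% for the 3 genes and was used for no test.

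The 24 spike-in and transgene features (at most 0.000177% of a library) were left out. The columns name genotype but no labelled replicate number. Genes passing filterByExpr (count minimum 10; 16328 genes, all 3 members included) were tested with edgeR 4.0.16 in R 4.3.3 (TMM, robust glmQLFit, glmQLFTest) and Benjamini-Hochberg adjustment, with a threshold of 0.05. Log2 CPM used a prior count of 2. Standard errors (SE) and 95% intervals came from the F statistic. Shares and ratios were tested by exact two-sided permutation, and correlations with 100000 resamples. For correlations on differences from the prefix mean, values were shuffled over all libraries and not within prefixes. Alternatives included DESeq2 1.42.0 and limma 3.58.1. The lowest chi-square per gene between 2 libraries was 11.1 over 78 pairs, so none was taken as a repeat.

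Gene symbols were matched for 48349 of 48709 genes, and all 3 members had an entry among the RefSeq promoters. The genes named besides the members are Mmp20 and Klk4, the 5 genes of highest r for each member, genes overlapping a member, and the 2 genes of smallest p in each list. Krt14, Cdh1, Col1a2 and Dmp1, and the levels of Krt5, Epcam and Col1a1, were added after their values were seen. The members and lists were chosen with earlier results of these data known.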

Additional observations from a re-analysis of the deposited data

How the results depend on the processing

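Amelx and Enam kept a positive log2 fold change and stayed outside the threshold under every alternative and with each library left out, and Ambn stayed outside it too. Ambn changed sign without prefix 4 (0.055) and ranged from -0.094 to 0.058 with 1 library left out. In a planned fit with the mean of Y-linked genes as a covariate, the log2 fold change was 0.15 for Amelx, -0.081 for Ambn and 0.043 for Enam. With 1 library left out, the share of counts, Het minus WT, ranged from 0.207 to 0.384 percentage points for Amelx and from -0.324 to 1.59 for Ambn, negative without Het 5-5 and without WT 4-4. The Enam to Ambn log2 ratio moved to 0.22 without prefix 1, past an unadjusted 0.05, and to 0.040 without prefix 4, where the Amelx to Ambn log2 ratio was 0.016. The Enam to Amelx log2 ratio turned positive without prefix 1 (0.012) and prefix 4 (0.024), and ranged from -0.15 to 0.055 with 1 library left out.

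The correlation of Ambn and Enam stayed past the threshold under 8 alternatives and was 0.53, no longer past it, on differences from the prefix mean without WT 4-4. That of Amelx and Ambn was 0.60 on differences from the prefix mean, -0.034 without the 2 farthest libraries, -0.055 by Spearman's rho and -0.28 without WT 4-4. That of Amelx and Enam was 0.66 on differences from the prefix mean, -0.10 without the 2 farthest libraries and -0.18 without WT 4-4. Leaving out WT 4-4, alone or with prefix means taken off, was added after seeing the data, as was a fit with prefix and the mean of Y-linked genes as terms, which called 17 genes.

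The number of genes called, 14 by edgeR, was 27 with all genes kept, 25 where 5 libraries had to reach 1 CPM, 71 with DESeq2, 27 with limma-voom and 30 with prefix as a term. In edgeR it was 0 without prefix 1 (731 at an unadjusted p under 0.05), 1 without prefix 4 and 2 without prefix 5, and 6 to 22 with 1 library left out. Leaving out Het 4-2 or Het 5-6 gave 6, Het 5-5 gave 7, Het 1-2 or WT 1-1 gave 8, WT 1-4 gave 9 and WT 5-1 gave 22. The cause of these shifts was not tested. No paired analysis was possible because the table columns carry no replicate number from the labels, and the fit with prefix as a term pairs no labelled replicates.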
